A study of Mus musculus with 8 samples.

Results

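DNA replication and S-phase genes encode the machinery that licenses replication origins, unwinds DNA, copies both strands, supplies deoxynucleotides and packs the new DNA into chromatin. A set of 45 such genes was chosen by gene symbol, with no threshold on any measured value, and all 45 were found among the 47729 genes of the neural stem cell (NSC) table and the 40562 genes of the astrocyte (AST) table. RNA sequencing was examined in 3 wild type (WT) and 3 S89G-DMP1 libraries of NSCs, grown as neurospheres from the sub-ventricular zone in DMEM/F12 with N2 supplements, and in primary astrocytes of the cortex, with 1 library for each genotype, grown in DMEM with 10% fetal bovine serum. S89G-DMP1 mice are homozygous knock-in animals in which the serine of dentin matrix protein 1 (DMP1) that carries a glycosaminoglycan chain was changed to glycine, made in C57BL/6J embryonic stem cells with the selection cassette later removed. Wild type C57BL/6 mice served as controls, and no treatment is labelled for any group. The labels give an age of 10 weeks, whereas the methods describe mice of 3 months, of both sexes, for astrocyte culture. Neither source says whether the 3 NSC libraries of a genotype came from separate mice or cultures, so p-values measure the spread between these libraries, which may be technical.

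Replication starts when the origin recognition complex, Cdc6 and Cdt1 load the MCM2-7 helicase onto DNA, and Mcm10, Cdc45 and the GINS proteins then switch that helicase on. Polymerase alpha with primase lays down primers, polymerases delta and epsilon extend them on the Pcna clamp, and the lagging strand is finished by flap removal and ligation. Most of these genes are transcribed towards S phase by E2F factors, so their mRNAs are used as a readout of how many cells are cycling. Neural stem cells of the sub-ventricular zone divide in culture, while mature cortical astrocytes are mostly outside the cell cycle.

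RefSeq promoters of the members (GRCm38.p6, 250 bases before to 50 bases after each start) were searched for the letters TTTCGCGC, TTTGGCGC, TTTCCCGC and TTTGCCGC, 4 forms of the E2F site, and for CCAAT, on either strand and with overlapping matches allowed. For 38 of the 45 members a promoter was in the table, with 44 windows. An E2F-type match lay in 14 of the 44 windows (31.8%), against 2.26% of all 32851 promoter windows, and CCAAT in 27 (61.4%) against 37.4%. Both lay in 20.5% of the members' windows and in 0.962% of all windows. The mean GC content was 59.2% in the members' windows and 53.8% in all windows. The following sequences are matches in members at least 2-fold higher in the S89G-DMP1 astrocyte library whose printed stretch lies wholly before the gene start in RefSeq and in the GENCODE M21 annotation, with the match in capitals. Each reads 5′ to 3′ on the strand of the gene.
Mcm5, chr8:75109326-75109393, plus strand: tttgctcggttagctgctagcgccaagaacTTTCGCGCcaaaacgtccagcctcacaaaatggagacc
Mcm6, chr1:128359715-128359782, minus strand: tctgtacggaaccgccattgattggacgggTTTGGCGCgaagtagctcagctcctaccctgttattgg
Mcm6, chr1:128359774-128359841, minus strand: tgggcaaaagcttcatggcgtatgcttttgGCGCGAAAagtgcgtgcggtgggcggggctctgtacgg
Pola1, chrX:93632256-93632323, minus strand: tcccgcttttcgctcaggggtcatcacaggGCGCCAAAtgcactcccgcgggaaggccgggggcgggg
Dtl, chr1:191575545-191575582, minus strand: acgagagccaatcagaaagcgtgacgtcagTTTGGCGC
Other matches overlap the ones shown for Mcm5 and for the second site of Mcm6. A match is a run of letters and was not tested as a binding site.

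The NSC tables hold 2354615 to 2588130 counted reads per library, and 14008670 (WT) and 13016924 (S89G-DMP1) were counted for the astrocytes. Dmp1, the gene that carries the mutation, had 18, 21 and 16 counts in the WT NSC libraries and 6, 3 and 5 in the S89G-DMP1 NSC libraries (log2 fold change -1.90, adjusted p = 0.00013). In the astrocytes its counts went the other way, with 2 in WT and 119 in S89G-DMP1, a difference of at least 34.9-fold. Markers fixed for neural stem cells were present in the NSCs, where 7 of 8 had at least 10 counts in every WT library and 8 of 8 in every S89G-DMP1 library, and their summed level was 4537 to 4826 CPM (counts scaled to library depth with TMM factors) in WT and 5006 to 5049 in S89G-DMP1. The WT library labelled astrocytes was poor in defining astrocyte markers. Aqp4 and Slc1a3 had 8 counts each there, against 4051 and 3877 for S89G-DMP1. Not all markers on the list were so low: Sox9 had 539 counts in WT and 1820 in S89G-DMP1. S100b went the other way, with 64 counts in WT and 30 in S89G-DMP1. The summed level of the 10 astrocyte markers was 86.7 CPM (WT) and 1160 CPM (S89G-DMP1).

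In the NSCs the replication genes were slightly but broadly higher in S89G-DMP1 than in WT. With edgeR's quasi-likelihood test over 11194 genes, 15 of the 45 members (33.3%) rose at an adjusted p under 0.05 and 0 fell, where 7.08% of all tested genes rose and 8.76% fell. The fitted log2 fold change was above 0 for 42 members (93.3%), against 50.6% of all genes, and its median was 0.20 over the members and 0.003 over all genes. At an unadjusted p under 0.05, 27 members (60.0%) were higher, against 13.1% of all genes, and 0 were lower. The 15 members that rose were 13.8% to 41.5% higher. Without S89G-DMP1 replicate 2 the count was 9 members, where 5.23% of all genes were called higher, and 9 of the 15 lost their call in at least 1 of the 6 fits that leave out a library. Mcm4, Mcm7, Pola1, Rpa1, Rrm2 and Dtl also passed the test in DESeq2, which called 6 members (13.3%) higher and 0 lower, against 3.11% and 4.49% of all genes.

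Each group of 3 libraries was also compared directly. For 25 of 45 members (55.6%) all 3 S89G-DMP1 libraries lay above all 3 WT libraries in CPM scaled by TMM factors, against 14.8% of all tested genes, while for 0 members they all lay below (16.0% of all genes). The other 20 members overlapped. Centred on each gene's own mean, the median member stood at log2 values of -0.13, -0.11 and -0.08 in the WT libraries and 0.07, 0.09 and 0.15 in the S89G-DMP1 libraries. The summed CPM of the members was 4711 to 4741 in WT and 5308 to 5564 in S89G-DMP1, a ratio of the means of 1.15. The plot of the NSC libraries gene by gene shows this shift as orange points to the right of grey ones in most rows. In bulk RNA a larger share of cells in S phase and more RNA per cell cannot be told apart.

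**Figure D1:**
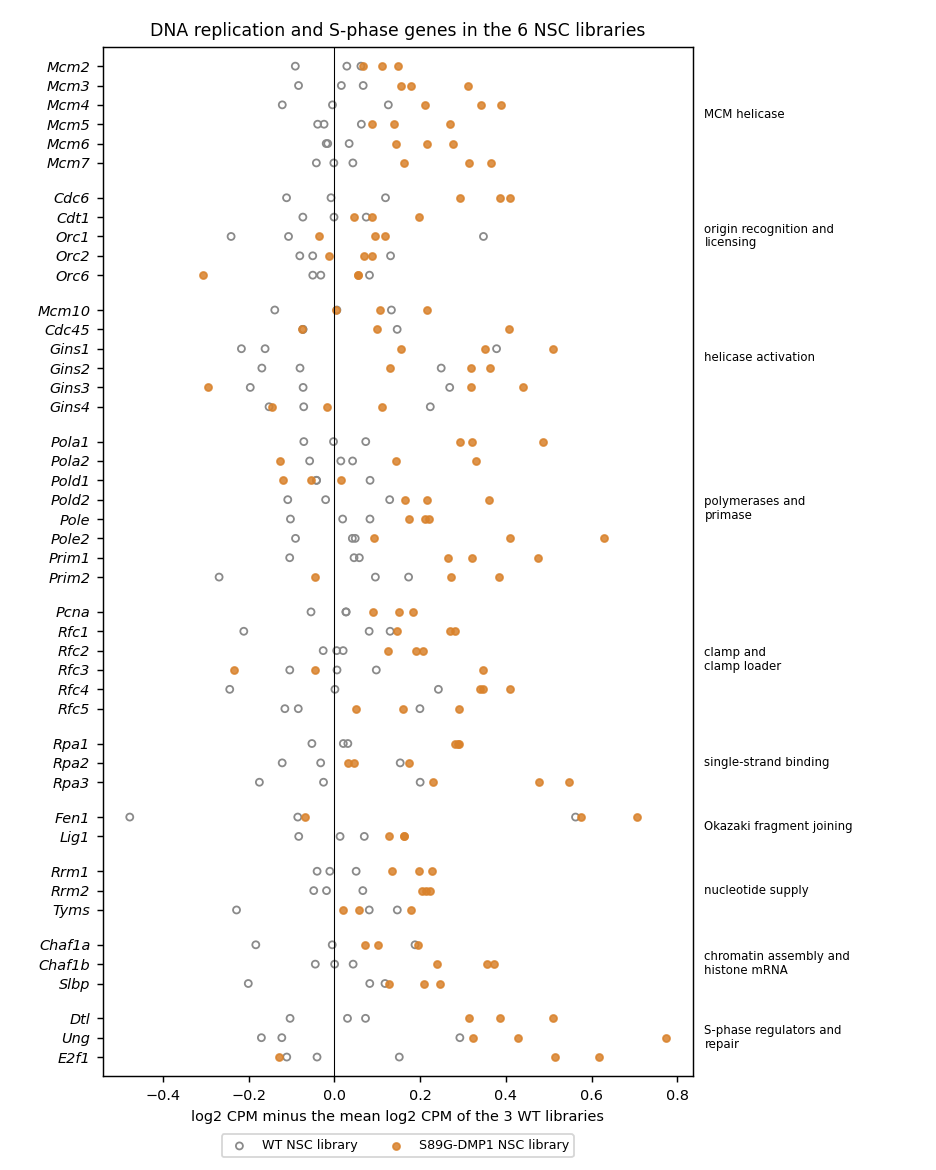
Level of each of the 45 members in the 6 NSC libraries, as log2 CPM minus the mean log2 CPM of the 3 WT libraries, grouped by role. Open grey points are WT libraries and filled orange points S89G-DMP1 libraries. In 25 members all orange points lie to the right of all grey points, and in 0 members all lie to the left.

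The MCM2-7 helicase, the ring that unwinds DNA at the fork, was the only role in which the libraries of the genotypes were separate for every member. Mcm4 was at 187, 204 and 172 CPM in WT and 245, 217 and 237 CPM in S89G-DMP1 (log2 fold change 0.31 ± 0.0667 SE, adjusted p = 0.000341). Mcm7 was at 244, 251 and 258 CPM in WT and 281, 312 and 323 CPM in S89G-DMP1 (0.28 ± 0.0610, adjusted p = 0.0004). Both subunits kept their call in each of the 6 fits that left out 1 library, and 12.6% of the exon bases of Mcm7 are shared with neighbours such as Ap4m1 and Cops6 on the opposite strand. Mcm6, one of the genes with an E2F-type match shown above, read 222, 222 and 230.0 CPM in WT and 261, 248 and 272 CPM in S89G-DMP1 (0.21 ± 0.0616, adjusted p = 0.00984). Mcm3 read 189, 203 and 210.1 CPM in WT and 227, 223 and 249 CPM in S89G-DMP1 (0.22 ± 0.0646, adjusted p = 0.0128). Without S89G-DMP1 replicate 3 both Mcm6 and Mcm3 missed the threshold, and without WT replicate 1 Mcm3 did too (adjusted p up to 0.0701 for Mcm6 and 0.123 for Mcm3). Mcm2 and Mcm5 did not pass the test, at log2 fold changes of 0.11 (adjusted p = 0.237) and 0.17 (adjusted p = 0.0593), although their libraries did not overlap. Mcm2 ranged from 269.7 to 299.9 CPM in WT and from 301 to 318 CPM in S89G-DMP1.

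Few of the genes that load or activate the helicase passed the test. Among the 5 origin recognition and licensing genes, only Cdc6, the loader ATPase, rose, from 44.2, 41.2 and 48.3 CPM in WT to 58.1, 59.1 and 54.5 CPM in S89G-DMP1 (log2 fold change 0.36 ± 0.110, adjusted p = 0.0156). All 3 mutant libraries stood above the WT ones. This call was lost without WT replicate 2, S89G-DMP1 replicate 1 or S89G-DMP1 replicate 2 (adjusted p up to 0.0992). Cdt1, the MCM chaperone, and the origin recognition subunits Orc1, Orc2 and Orc6 had log2 fold changes of 0.11, 0.03, 0.05 and -0.05 with overlapping libraries. Of the 6 helicase activation genes 0 passed the test and all 6 overlapped. The values ran from -0.02 for Gins4 to 0.33 for Gins1, 2 of the 4 GINS subunits, with 0.11 for Mcm10 and 0.16 for Cdc45. Some of these were thinly counted, such as Orc1 with 19 to 31 counts and Gins3 with 27 to 48 counts per NSC library. Others were not: Mcm10 had 159 to 197 counts and Cdt1 142 to 180, against 105 to 138 for Cdc6. Whether the loading genes differ from the MCM genes was not tested.

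Among polymerases and primase 3 of 8 members rose. Pola1, the catalytic subunit of polymerase alpha, was at 73.7, 77.7 and 70.3 CPM in WT and 90.6, 104 and 92.3 CPM in S89G-DMP1 (log2 fold change 0.37 ± 0.0892, adjusted p = 0.00174). Prim1, the primase subunit that makes the RNA primer, was at 54.8, 48.9 and 54.3 CPM in WT and 63.2, 73.2 and 65.8 CPM in S89G-DMP1 (0.36 ± 0.103, adjusted p = 0.0103). For these genes the WT libraries lay close together and well under the mutant ones. Pold2, an accessory subunit of polymerase delta, was at 83.0, 97.9 and 88.3 CPM in WT and 115, 104 and 100.3 CPM in S89G-DMP1 (0.24 ± 0.0847, adjusted p = 0.0385), with little space between the groups. The call of Prim1 was lost without WT replicate 2 or S89G-DMP1 replicate 2, and that of Pold2 without WT replicate 1 or 3 or S89G-DMP1 replicate 1 or 2 (adjusted p up to 0.0948 for Prim1 and 0.214 for Pold2). The partner subunits did not pass the test: Pola2 stood at 0.13, Prim2 at 0.21 and Pold1 at -0.05 on the log2 scale, and their libraries overlapped. Pole and Pole2 of polymerase epsilon stood at 0.20 (adjusted p = 0.0622) and 0.39 (adjusted p = 0.129) without overlap.

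At the fork, Rpa1 and Rfc1 rose. Rpa1, the large subunit of the single-strand binding protein RPA, was at 145, 146 and 138 CPM in WT and 175, 175 and 174 CPM in S89G-DMP1 (log2 fold change 0.29 ± 0.0683, adjusted p = 0.00144), with hardly any spread in the mutant. Rfc1, the large subunit of the clamp loader, was at 139, 134 and 109 CPM in WT and 140.3, 154 and 153 CPM in S89G-DMP1 (0.23 ± 0.0765, adjusted p = 0.0299). The lowest mutant value lay just above the highest WT value, and the call was lost without WT replicate 3 or S89G-DMP1 replicate 2 or 3 (adjusted p up to 0.331). Pcna, the sliding clamp, was at 321, 321 and 303 CPM in WT and 335, 349.7 and 358 CPM in S89G-DMP1, which did not overlap and did not pass the test (0.14, adjusted p = 0.0817). The small RFC subunits Rfc2, Rfc3, Rfc4 and Rfc5 stood at 0.18, 0.04, 0.36 and 0.16 on the log2 scale, the RPA subunits Rpa2 and Rpa3 at 0.08 and 0.41, and none of these 6 passed the test. Lig1, the ligase that joins Okazaki fragments, stood at 0.15 (adjusted p = 0.0997) without overlap. Fen1, the flap nuclease, had 13 to 31 counts per library and a log2 fold change of 0.37 with an interval from -0.15 to 0.89.

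Both subunits of ribonucleotide reductase, the enzyme that makes deoxynucleotides, rose. Rrm2, the small subunit, was at 421, 389 and 397 CPM in WT and 464, 469.9 and 466 CPM in S89G-DMP1 (log2 fold change 0.21 ± 0.0541, adjusted p = 0.00277), and Rrm1, the large subunit, at 333, 355 and 340.3 CPM in WT and 393, 376 and 401 CPM in S89G-DMP1 (0.19 ± 0.0561, adjusted p = 0.0137). In neither gene did the groups touch, and only Rrm1 missed the threshold in a fit without 1 library, S89G-DMP1 replicate 3 (adjusted p = 0.0625). Tyms, which makes thymidylate, overlapped at 0.08. Chaf1b, a subunit of the assembly factor that places histones behind the fork, was at 52.3, 55.6 and 53.9 CPM in WT and 63.6, 69.8 and 69.0 CPM in S89G-DMP1 (0.32 ± 0.101, adjusted p = 0.0193). Its call was lost without WT replicate 1, S89G-DMP1 replicate 2 or S89G-DMP1 replicate 3 (adjusted p up to 0.0832). Its partner Chaf1a (0.11) and Slbp, which binds the stem-loop of histone mRNAs (0.19), did not pass the test.

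Of the S-phase regulators and repair genes, Dtl and Ung rose. Dtl (chromosome 1, 191537356 to 191575544, minus strand, GRCm38), the substrate receptor of the ligase that destroys Cdt1 in S phase, was at 84.7, 74.98 and 82.3 CPM in WT and 105, 100.1 and 115 CPM in S89G-DMP1 (log2 fold change 0.41 ± 0.0857, adjusted p = 0.000279), the smallest adjusted p of the 45 members. Ung (chromosome 5, 114130386 to 114139323, plus strand), which removes uracil from DNA, had the largest change of the 15, from 27.8, 28.7 and 38.3 CPM in WT to 39.2, 53.5 and 42.1 CPM in S89G-DMP1 (0.50 ± 0.134, adjusted p = 0.0047). WT replicate 3 lay just under the lowest mutant library, and without S89G-DMP1 replicate 2 the call was lost (adjusted p = 0.106). E2f1 (chromosome 2, 154559407 to 154569892, minus strand), an activator of many of these genes, was at 33.3, 35.0 and 39.9 CPM in WT and 32.9, 55.2 and 51.3 CPM in S89G-DMP1 (0.36, adjusted p = 0.0511). S89G-DMP1 replicate 1 was the lowest of all 6 libraries for E2f1, so the groups overlapped.

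The calls lay mostly among the deeply counted members. Of the 19 members with a mean of at least 200 counts, 11 rose, with a median log2 fold change of 0.21 and a median SE of 0.0667. Of the 26 members under 200 counts, 4 rose, with a median of 0.18 and a median SE of 0.115. The share of all genes called at these depths was not taken, so whether the split is particular to the members was not tested. For the 30 members that did not pass the test, the lowest end of a 95% interval was -0.45 (Orc1) and the highest 0.89 (Fen1). The median log2 fold change of the 15, 0.29, lay within the intervals of some thinly counted members, such as Orc1 and Fen1. It lay above those of others, such as Orc6 (-0.28 to 0.18) and Gins4 (-0.29 to 0.25). Per kilobase of exon, the highest levels in the NSCs were those of Rrm2, 145 ± 6.04 RPKM computed from the counts in WT and 168 ± 1.12 in S89G-DMP1 (SD, n = 3), and Pcna, 131 ± 4.25 and 145 ± 4.84. Orc1 was the lowest at 2.76 ± 0.615 and 2.84 ± 0.162.

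The deposited TPM values separated fewer members. In 21 of 45 the TPM of the 3 S89G-DMP1 libraries lay above those of the 3 WT libraries, against 9.17% of all genes, while limma on log2(TPM + 1) called 0 members, against 0.232% of all genes higher and 0.858% lower. Counts and TPM parted most for Gins2, at 14.2, 15.2 and 35.0 TPM in WT and 54.3, 58.6 and 49.7 TPM in S89G-DMP1, while its CPM of 32.9, 35.0 and 43.9 and of 40.4, 47.5 and 46.1 overlapped. Annotated genes on the opposite strand cover part of some members' exons, and the strand setting of the counting is not stated: 84.2% of the exon bases of Fen1 (under Gm10143 and Tmem258), 67.3% of Gins2 (Gse1) and 52.5% of Chaf1a (Ubxn6) are shared. The counts of these 3 genes are uncertain. For 29 members no exon base is shared with another gene. Fen1 had few counts although its deposited TPM was 82.8 to 113.

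**Figure D2:**
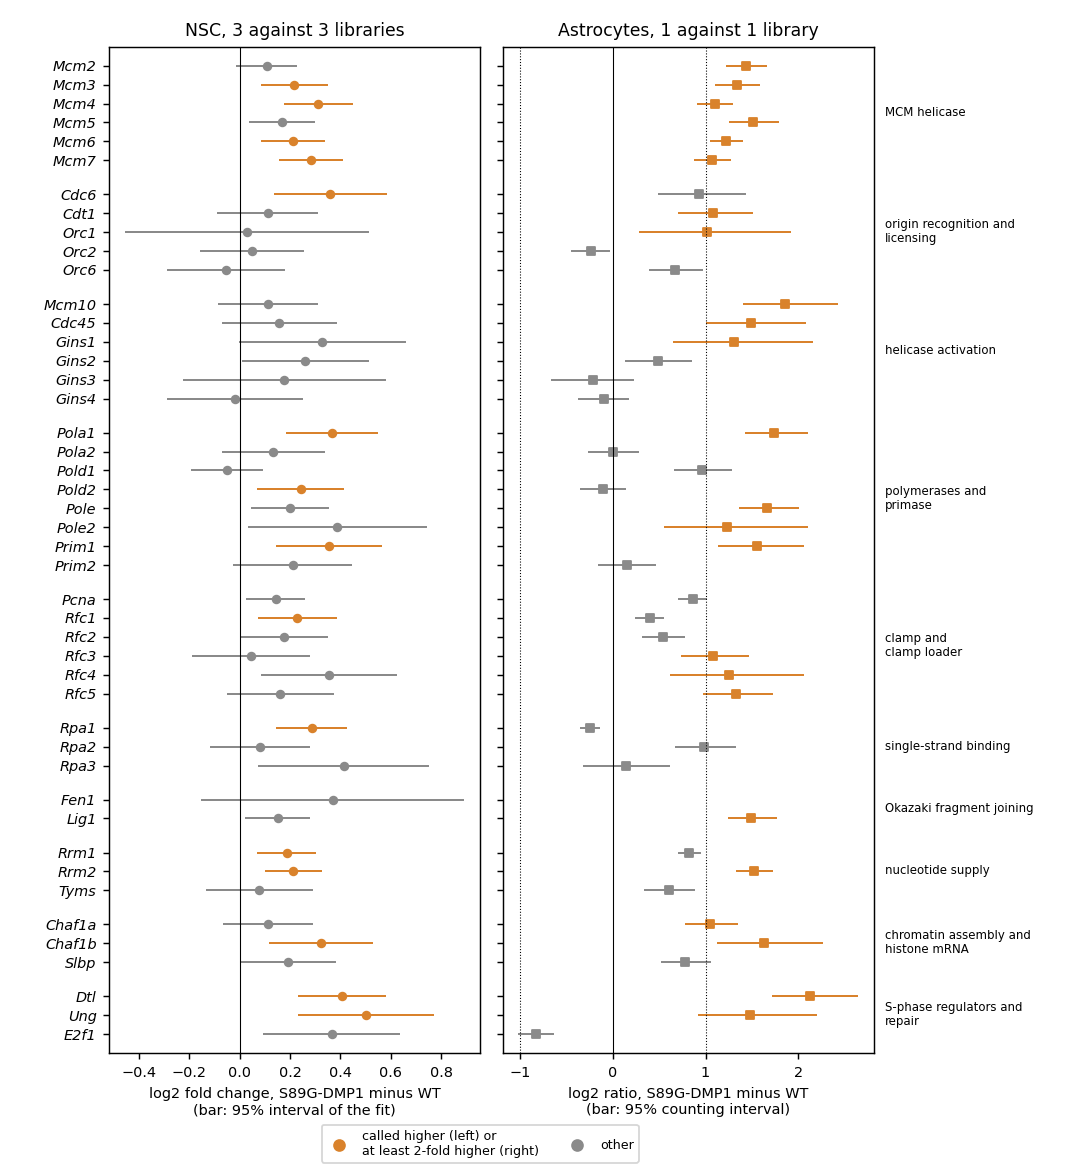
Difference between S89G-DMP1 and WT for each member, with the NSCs on the left (log2 fold change of the fit, bar for its 95% interval) and the astrocytes on the right (log2 ratio of 1 library to 1 library, bar for the 95% counting interval, dotted lines at 2-fold). Orange marks the 15 members called higher in the NSCs and the 24 at least 2-fold higher in the astrocytes. The scales differ, and Fen1 is not drawn for the astrocytes because it had too few counts.

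Genes of the same pathway outside the 45 were followed in the NSCs as well. Of 43 other replication genes, 9 rose (20.9%) and 0 fell, 39 were above 0, and the median log2 fold change was 0.18. The 9 were 4 without S89G-DMP1 replicate 3 and 2 in DESeq2, where 5.02% and 3.11% of all genes were called higher. The smallest adjusted p belonged to Nasp, a histone chaperone (0.29, adjusted p = 0.000167), Supt16, a subunit of the FACT histone chaperone (0.28, adjusted p = 0.000705), and Ctps, which makes CTP (0.31, adjusted p = 0.004). Of 20 tested S-phase entry regulators 4 rose and 0 fell, among them the S-phase cyclins Ccna2 (0.29, adjusted p = 0.000439) and Ccne2 (0.44, adjusted p = 0.00735) and the E2F family member E2f5 (0.58, adjusted p = 0.0197). Of these 4, DESeq2 called 1, E2f5 being at an adjusted p of 0.184 there. Without WT replicate 3 or without S89G-DMP1 replicate 3 the list had 1 call, where 5.65% and 5.02% of all genes were called higher. Without S89G-DMP1 replicate 2 it had 2, against 5.23% of all genes, and E2f5 was called in 2 of the 6 such fits. Among 20 mitosis genes 17 rose (85%) with a median of 0.29. The proliferation marker Mki67 had 2530, 2627 and 2719 counts in WT and 3295, 2978 and 3483 in S89G-DMP1 (0.36, adjusted p = 2.78e-08), and the topoisomerase Top2a stood at 0.30 (adjusted p = 6.45e-06). Summed over the mitosis list the level was 4434 to 4622 CPM in WT and 5349 to 5734 CPM in S89G-DMP1. Astrocyte markers moved with them, from 1783 to 1825 CPM in WT to 2307 to 2349 CPM in S89G-DMP1, while the defining marker Gfap had 0 to 1 counts in WT and 2 to 6 in S89G-DMP1. Neuron markers summed to 1151 to 1299.7 CPM in WT and 1189 to 1211 CPM in S89G-DMP1, a sum that is mostly Map2. Of 4 tested neuron markers 1 fell, the synaptic vesicle protein gene Syt1, named after its values were seen, with 144, 169 and 146 counts in WT and 12, 22 and 21 in S89G-DMP1 (log2 fold change -3.004, adjusted p = 1.33e-23). The summed levels of fibroblast, microglia and endothelial markers stayed under 40 CPM in each NSC library. The part of other cell types in the NSC result was not tested.

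**Figure D3:**
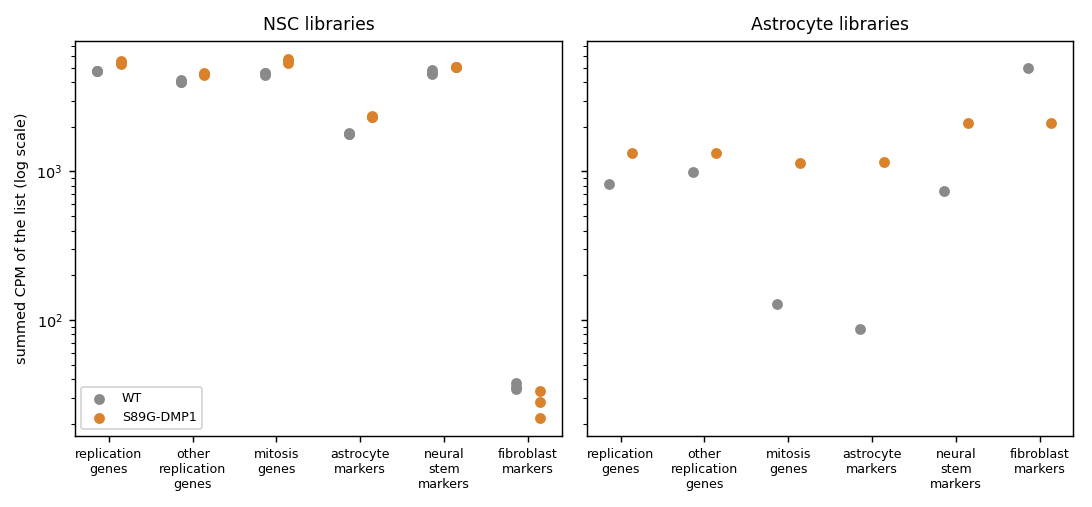
Summed CPM of each gene list in each library, on a log scale, with grey for WT and orange for S89G-DMP1. In the NSCs the replication and mitosis lists differ little beside their level, while in the astrocytes the mitosis list goes from 128 to 1136 CPM and the astrocyte markers from 86.7 to 1160 CPM.

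The astrocyte comparison rests on 1 library a genotype, so it has no replicate check and no p-value, and the intervals given with it are exact binomial ones at 95% that cover counting error only. Of 44 members with at least 10 counts in either library, 24 (54.5%) were at least 2-fold higher in S89G-DMP1 and 0 at least 2-fold lower, against 17.3% and 12.8% of all 15680 genes counted. A further 20 lay within 2-fold, and Fen1, with 1 and 5 counts, was not compared. The log2 ratio was above 0 for 38 members, against 50.5% of all genes, and its median was 1.06, against 0.01 over all genes. Scaling by library size alone moved the median of all genes to 0.30 and that of the members to 1.35. On that scale 30 members were at least 2-fold higher (22.2% of all genes), and 43 of 44 were above 0 (66.4% of all genes).

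All 6 MCM helicase genes were at least 2-fold higher, with log2 ratios from 1.07 (Mcm7) to 1.51 (Mcm5). Mcm5, whose promoter site is printed above, had 161 counts in WT and 525 in S89G-DMP1, or 12.7 and 36.5 CPM (2.85-fold, interval 2.40 to 3.44). No other role with more than 1 compared gene had so narrow a range. Helicase activators ran from Mcm10, which joins the activated helicase, with 43 and 183 counts (3.63-fold, interval 2.67 to 5.34), and Cdc45 with 41 and 135 counts (2.81-fold, interval 2.03 to 4.21), down to Gins4 and Gins3 with log2 ratios of -0.10 and -0.21. Of the licensing genes, Cdt1 (1.08) and Orc1 (1.01) were past 2-fold, Cdc6 (0.93) and Orc6 (0.67) under it, and Orc2 stood at -0.24.

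Subunits of polymerase alpha and primase did not share a ratio. Pola1 had 99 counts in WT and 382 in S89G-DMP1, or 7.82 and 26.5 CPM (3.35-fold, interval 2.71 to 4.28), while its partner Pola2 had 232 and 265 counts (log2 ratio 0.01, interval -0.25 to 0.27). Prim1 went from 54 to 185 counts (2.94-fold, interval 2.21 to 4.16) and Prim2 from 165 to 209 (log2 ratio 0.15, interval -0.15 to 0.46). In both pairs the intervals were far apart. Pole, the catalytic subunit of polymerase epsilon, had 109 and 397 counts (3.16-fold, interval 2.58 to 3.995), and Pole2 had 21 and 59 (2.35-fold, interval 1.48 to 4.28), so their intervals overlapped. Pold1 stood at a log2 ratio of 0.96 (interval 0.67 to 1.28) and Pold2 at -0.10 (interval -0.34 to 0.13). These ratios are within 1 pair of libraries, and how they would vary between cultures cannot be read from them.

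Among the fork proteins, Lig1 had 172 and 555 counts (2.82-fold, interval 2.39 to 3.39), and Rfc3, Rfc4 and Rfc5 were past 2-fold with log2 ratios of 1.08, 1.25 and 1.33. Pcna (0.86), Rfc2 (0.54) and Rfc1 (0.40) stood between 0 and 2-fold. Of the RPA subunits, Rpa2 stood at 0.99, Rpa3 at 0.14 and Rpa1 at -0.25. For the supply of nucleotides, Rrm2 had 294 and 965 counts (2.87-fold, interval 2.53 to 3.30), Rrm1 stood at a log2 ratio of 0.82 and Tyms at 0.61. Rrm2 therefore changed the order of the levels per length: in deposited FPKM it went from 18.5 to 65.3, to the second place of the 45 after Pcna (45.5 to 101), while Rpa1, the highest in WT, went from 56.4 to 58.0. Chaf1b had 36 and 131 counts (3.09-fold, interval 2.20 to 4.76), Chaf1a stood at 1.05 and Slbp at 0.78.

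The S-phase regulators held both ends of the range. Dtl was the member with the highest ratio, with 51 counts in WT and 261 in S89G-DMP1, or 4.03 and 18.1 CPM (log2 ratio 2.13, interval 1.73 to 2.63), and the only one past 4-fold. Ung had 29 and 96 counts (log2 ratio 1.48, interval 0.93 to 2.19). E2f1 had the lowest ratio, with 654 counts in WT and 419 in S89G-DMP1, or 51.7 and 29.1 CPM (log2 ratio -0.83, interval -1.01 to -0.65), and was the only member below 0 under library size alone as well (-0.53). The counting interval was above 0 for 35 members and below 0 for 3, namely E2f1, Rpa1 and Orc2, but the ratios of Rpa1 and Orc2 were 0.04 and 0.05 under library size alone.

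**Figure D4:**
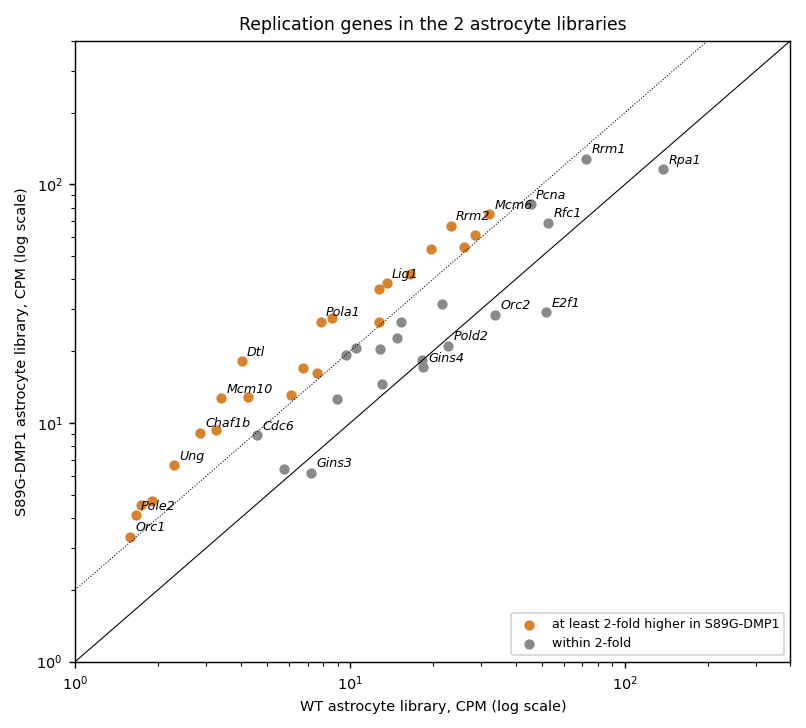
Level of 44 members in the WT astrocyte library (x axis) and the S89G-DMP1 astrocyte library (y axis), in CPM scaled by TMM factors, on log axes, with some genes named. The solid line marks equal levels and the dotted line 2-fold, and orange points are the 24 members at least 2-fold higher. E2f1 lies farthest under the solid line, and Rpa1, the point farthest to the right, lies just under it.

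In this pair of libraries the median log2 ratio of the mitosis genes lay above that of the members (1.06). The medians of the other replication genes and of the S-phase entry regulators lay below it. Single genes of both these lists still had larger ratios than any member, the highest of which was Dtl (2.13). Past 4-fold were 19 of 20 mitosis genes, 6 of 43 other replication genes, 3 of 21 S-phase entry regulators and 1 of 44 members. The difference between the lists was not tested. All 20 mitosis genes were at least 2-fold higher, with a median log2 ratio of 2.95, Mki67 at 183 and 3312 counts (3.98) and Top2a at 254 and 2659 counts (3.19). Of 43 other replication genes 19 (44.2%) were at least 2-fold higher and 0 lower, with a median of 0.93. The top 3 were Exo1, a nuclease (3.37), Asf1b, a histone chaperone (3.06), and Ticrr, which helps to activate origins (2.58), and the lowest 3 were Pold4 (-0.74), Ctps (-0.70) and Pole3 (-0.36). Among 21 S-phase entry regulators 8 were at least 2-fold higher and 0 lower, with a median of 0.64. Ccna2 (3.70) and the repressor E2Fs E2f8 (3.62) and E2f7 (2.36) led them, and the pocket protein Rbl2 (-0.62), the phosphatase Cdc25a (-0.53) and the cyclin Ccne1 (-0.35) came last.

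Markers of cell types moved with the genotype in the astrocyte pair as well. From WT to S89G-DMP1 the summed CPM of the astrocyte markers went from 86.7 to 1160, of neural stem markers from 733 to 2115, of fibroblast markers from 4928 to 2105, of mural markers from 1958 to 2718, of endothelial markers from 194 to 72.4, of microglia markers from 421 to 619, of oligodendrocyte markers from 20.5 to 25.97 and of neuron markers from 97.4 to 300.02. By direction, 8 of 9 counted astrocyte markers were at least 2-fold higher and 1 (S100b) at least 2-fold lower. Among 8 fibroblast markers 5 were at least 2-fold lower and 1 (Fbln1) higher. Of 6 microglia markers 3 were higher and 1 (Tmem119) lower by that limit. For the 4 counted neuron markers these numbers were 3 and 1 (Tubb3), and Map2, at 8.29 and 192 CPM, made up most of the neuron sum in S89G-DMP1. Past 2-fold, 4 of 6 mural markers were lower and 1 was higher, with a median log2 ratio of -3.05. The higher one was Acta2, a smooth muscle actin named after its values were seen, at 723 and 2468 CPM, which made up most of the mural sum in S89G-DMP1. Of 6 counted endothelial markers 3 were lower and 1 was higher by the same limit. Among the markers at 0 counts in a library were the astrocyte marker Gjb6 (S89G-DMP1), the neural stem marker Hes5 (both), the endothelial marker Cldn5 (both) and the oligodendrocyte marker Mog (S89G-DMP1). The makeup of the cultures and the genotype cannot be told apart with 1 library each, and the part of the makeup in the replication genes was not tested.

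The NSC and astrocyte tables were made separately and have different depth, so the members' values are set side by side without a test. Of the 15 members that rose in the NSCs, 10 were at least 2-fold higher in the S89G-DMP1 astrocyte library and 13 were above 0. Over all 44 compared members these numbers were 24 (54.5%) and 38 (86.4%), and over all genes the shares were 17.3% and 50.5%. Over 44 members, which share libraries within each cell type, the correlation of NSC log2 fold changes with astrocyte log2 ratios was weak (Spearman's rho 0.19, Pearson's r 0.16). Dtl, Pola1, Prim1, Chaf1b and Ung were high in both, while Mcm10 and Cdc45, past 2-fold in the astrocytes, stood at 0.11 and 0.16 in the NSCs without passing the test. Of the 14 members with an E2F-type match in a promoter window 6 rose in the NSCs and 11 were at least 2-fold higher in the astrocytes. Of the 24 with a window and no match these numbers were 8 and 10. No match says only that these letters are not in the window.

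**Figure D5:**
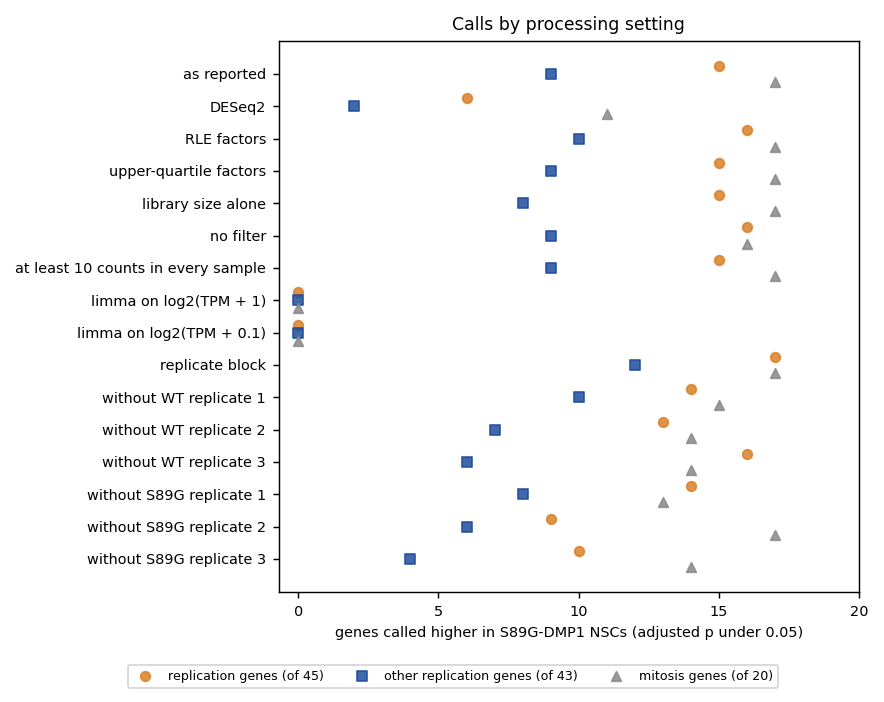
Number of genes called higher in S89G-DMP1 NSCs (x axis) under each processing setting (rows), for the 45 members, 43 other replication genes and 20 mitosis genes. The members' count is 15 as reported, between 13 and 17 in most settings, and 6 with DESeq2, 0 with limma on TPM, 9 without S89G replicate 2 and 10 without S89G replicate 3.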

How the data were processed

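For the NSCs the authors deposited raw read counts per gene and TPM values, which the submitters' processing notes tie to HISAT2, StringTie, featureCounts and GRCm38. For the astrocytes they deposited raw read counts and FPKM values from reads aligned with Bowtie2 2.0.6 and TopHat2 2.0.9. The genome build and counting program of the astrocyte table are not given in the sources used here. Gene positions and exon overlaps are from GENCODE M21 (GRCm38), and promoters from RefSeq (GRCm38.p6). All sample columns were mapped by title, and 0 columns were left out.

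Counts were examined in R 4.3.3. NSC counts were filtered with filterByExpr (11194 genes), scaled by TMM and compared between genotypes with the quasi-likelihood test of edgeR 4.0.16, with Benjamini-Hochberg adjustment over all tested genes and a threshold of 0.05. The study states no test for these counts. Astrocyte genes that reached 10 counts in 1 or both libraries were given a log2 ratio of CPM, scaled by TMM, after adding a prior count of 2. A library at 3 counts or fewer was also set to 3 counts for a second ratio. Replicates of a genotype differed by more than sampling noise (chi-square per gene 1.07 to 1.51, against 3.17 to 4.06 between genotypes), so none was counted as a duplicate. Alternatives were DESeq2 1.42.0, other scaling (RLE, upper quartile, no factor), other filters, limma 3.58.1 on log2(TPM + 1) and log2(TPM + 0.1), each library left out, the replicate number as a block and, for the astrocytes, FPKM, another prior count and other fold thresholds. The fits were tested on simulated data.

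The members and the other gene lists were chosen with earlier results of these data known, so no test over a list is given. All 45 members are accounted for. Values in every library are given for members called in the NSCs and for the 10 largest astrocyte ratios. Of the other replication genes and the S-phase entry regulators, the 3 genes with the smallest adjusted p or the largest ratio in each direction are named. Mki67, Top2a and Dmp1 are named as well. Some markers of the cell type lists are named outside this rule.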

Additional observations from a re-analysis of the deposited data

Results flagged for a closer look

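Pold2, an accessory subunit of polymerase delta, and Rpa1, the large subunit of RPA, had NSC and astrocyte values on opposite sides of 0. Each was higher in all 3 S89G-DMP1 NSC libraries than in all 3 WT NSC libraries (log2 fold changes of 0.24 and 0.29). Pold2 lost its NSC call in 4 of the 6 fits that leave out a library, and Rpa1 in 0. In the S89G-DMP1 astrocyte library each was lower than in the WT astrocyte library, with log2 ratios of -0.10 for Pold2 (287 and 304 counts, counting interval -0.34 to 0.13, which includes 0) and -0.25 for Rpa1 (1747 and 1670 counts, interval -0.35 to -0.15). The difference between the cell types was not tested, since the astrocytes have 1 library a genotype and a table of their own. Under library size alone both astrocyte ratios were above 0, at 0.19 and 0.041, as they were on both log2(FPKM) scales, so the opposite sides depend on the scaling.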

How the results depend on the processing

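The count of 15 members that rose in the NSCs was 6 with DESeq2 and 0 with limma on log2(TPM + 1) or log2(TPM + 0.1), where 0.232% and 0.214% of all genes were called higher, and ran from 9 (without S89G-DMP1 replicate 2) to 16 in fits without 1 library. It was 15 to 16 under other factors and filters, and no fit called a member lower. Why TPM gave no call was not tested. The other replication genes that rose, 9 as reported, were 2 with DESeq2, 0 with limma on either TPM scale and 4 to 10 without 1 library. With at least 10 counts in every sample, and without WT replicate 1, 1 of them, Pold4, was called lower. The S-phase entry regulators that rose, 4 as reported, were 1 with DESeq2, 0 with limma and 1 to 5 without 1 library, at 1 without WT replicate 3 or S89G-DMP1 replicate 3 and 2 without S89G-DMP1 replicate 2. For the mitosis genes, 17 as reported, these were 11, 0 and 13 to 17. Of all genes, 3.11% were called higher with DESeq2 and 5.02% to 6.44% in fits without 1 library.

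Of 675 results for single members in 15 NSC alternatives, 13 changed direction, 0 of them for a member that rose. Cdt1 was at -0.083 and -0.084 and Orc6 at 0.0057 and 0.0055 with limma on the TPM scales. In fits without 1 library the log2 fold change ran from -0.082 to 0.23 for Orc1, -0.10 to 0.10 for Gins4, -0.12 to 0.052 for Orc6, -0.14 to 0.17 for Rfc3 and -0.028 to 0.15 for Tyms. In the astrocytes the 24 members past 2-fold were 23 to 30 under other scales, units and filters, with 11.7% to 22.2% of all genes. There were 27 on log2(FPKM + 1) and 30 on log2(FPKM + 0.1), against 14.5% and 21.9% of all genes. Past 1.5-fold were 32 members and 25.3% of all genes, and past 4-fold 1 member and 8.64% of all genes. Past 4-fold were also 6 other replication genes and 3 S-phase entry regulators. At least 1.5-fold lower were 1 member (E2f1), 2 other replication genes and 1 S-phase entry regulator, against 21.2% of all genes. Same-numbered NSC libraries did not deviate together (correlations of -0.02 to 0.03, and 1 of 3 was highest with its own number). Much of the difference between replicates was sampling noise (chi-square per gene 1.07 to 1.51), so these correlations cannot exclude pairing. With the replicate block 17 members, 12 other replication genes and 5 S-phase entry regulators were called higher, against 7.41% of all genes. Depth limits the members with few counts, such as Orc1 and Gins3. Fen1 also had few counts, but its deposited TPM was 82.8 to 113 and 84.2% of its exon bases are shared. The reason for its few counts was not tested.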
